A study of Mus musculus with 11 samples.

Results

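This account concerns 32 mouse genes for glucose and lactate transport, glycolysis and the pentose phosphate pathway, out of 19057 genes with a named probe on the array. They were chosen by pathway and matched by annotated gene symbol. Expression was measured in 11 mammary tumours from female mice aged 12 weeks, with 1 Illumina Mouse WG-6 v2.0 array per tumour. The 6 PyMT tumours came from mice with the polyoma middle T oncogene, and the 5 PyMT/SIRT6 tumours from mice that carried the same oncogene and, in addition, the Sirt6BAC allele, a germline allele that overexpresses SIRT6. Every mouse in both groups therefore carried PyMT, the groups hold no normal mammary gland, and the promoter that drives the oncogene is not given in the labels used here. Nothing in the labels ties each tumour to its own mouse, and the p-values given here measure only how these samples spread, which may be partly technical.

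Glycolysis splits glucose into pyruvate, and lactate dehydrogenase turns pyruvate into lactate, which monocarboxylate transporters carry out of the cell. The pentose phosphate pathway branches off after hexokinase, giving NADPH in its oxidative arm and ribose for nucleotides in its non-oxidative arm. Several steps are served by isoforms from different genes, some of them typical of muscle or brain, and many of these genes are activated by the hypoxia-inducible factor HIF-1 when oxygen is low. SIRT6, a chromatin deacylase, is known as a corepressor of HIF-1 at glycolytic genes, and the genotype comparison asks whether extra SIRT6 goes with a lower level of these transcripts in the tumours.

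Of the 32 genes, 28 had a probe under their symbol, 52 probes in all, and the brightest probe of each gene was used. Hk2, Gpi1, Eno1 and G6pdx had none under those symbols and were not analysed here. Levels are log2 of the deposited intensity, on which the middle probe of an array lay at 7.30. The tested features were those in the upper 50% by mean, above 7.31, and 24 of the 28 genes were among them. A gene is called bright below when its mean was above 7.69, the level that 75% of all probes stayed under, and 19 genes were bright. The dim tested genes were Slc16a3, Hk3, Bpgm, Eno2 and Ldhb. Slc2a3, Slc16a1, Pfkfb3 and Pgd lay below the filter. In the 9 dim or filtered genes the levels moved over at most 0.25 across the 11 tumours, and no order is read from them. Bright and dim describe the probe and not the amount of RNA, since probes differ in how well they bind, so no gene's level is set against another's.

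Sirt6, the gene carried by the extra allele, separated the groups. Its level in PyMT tumours had a lowest value of 7.64, a median of 7.78 and a highest value of 7.88, and in PyMT/SIRT6 replicates 1 to 5 it was 8.49, 8.64, 8.31, 8.19 and 8.23. Every PyMT/SIRT6 tumour lay above every PyMT tumour, a log2 change of 0.61 ± 0.09 (SE; limma adjusted p = 0.0574, just above the threshold of 0.05). Markers of luminal epithelium, the cell layer from which milk-secreting cells come, were well measured in both groups, with mean levels of 9.85 to 10.81 over 11 tested genes in PyMT and 10.20 to 10.57 in PyMT/SIRT6 tumours. Skeletal muscle markers, which belong to another tissue, differed widely between tumours: the mean over 19 genes was 11.53 in PyMT replicate 5 and 9.84, 10.50 and 11.26 in PyMT/SIRT6 replicates 1, 4 and 5, against 7.40 to 8.41 in the other 7 tumours. In bulk tumours like these, fewer cells of a type and less RNA per cell cannot be told apart.

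None of the pathway genes differed between the genotypes beyond the spread between tumours. In limma, fitted over 14726 features, 0 of the 24 tested genes passed an adjusted p of 0.05, where 0.0136% of all features did (2 features). At an unadjusted p under 0.05 the count was also 0, against 4.43% of all features. The smallest unadjusted p among the 24 was 0.0737 and the smallest adjusted p 0.983. The levels of the genotypes overlapped for every one of the 24 genes, while over all features 0.292% were higher in every PyMT/SIRT6 tumour and 0.197% lower. Changes ran from -0.29 to 0.15, with 10 genes higher and 14 lower and a median of -0.03, beside a median of -0.01 and 53.1% lower over all tested features. The 95% intervals of the 24 changes all lay between -0.74 and 0.95, that is between 0.598-fold and 1.94-fold, so larger changes on these probes' scale fell outside the intervals. Without PyMT/SIRT6 replicate 2, 18 of the 24 were lower and 6 higher with a median of -0.14, and without PyMT/SIRT6 replicate 3, 11 were lower and 13 higher with a median of 0.00. Without the 4 tumours high in muscle markers 13 were lower and 11 higher, but that fit keeps only replicates 2 and 3 of the PyMT/SIRT6 group. With the muscle marker mean as a covariate over all 11 tumours, 15 were lower and 9 higher with a median of -0.03. In all of these fits 0 passed.

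**Figure D1:**
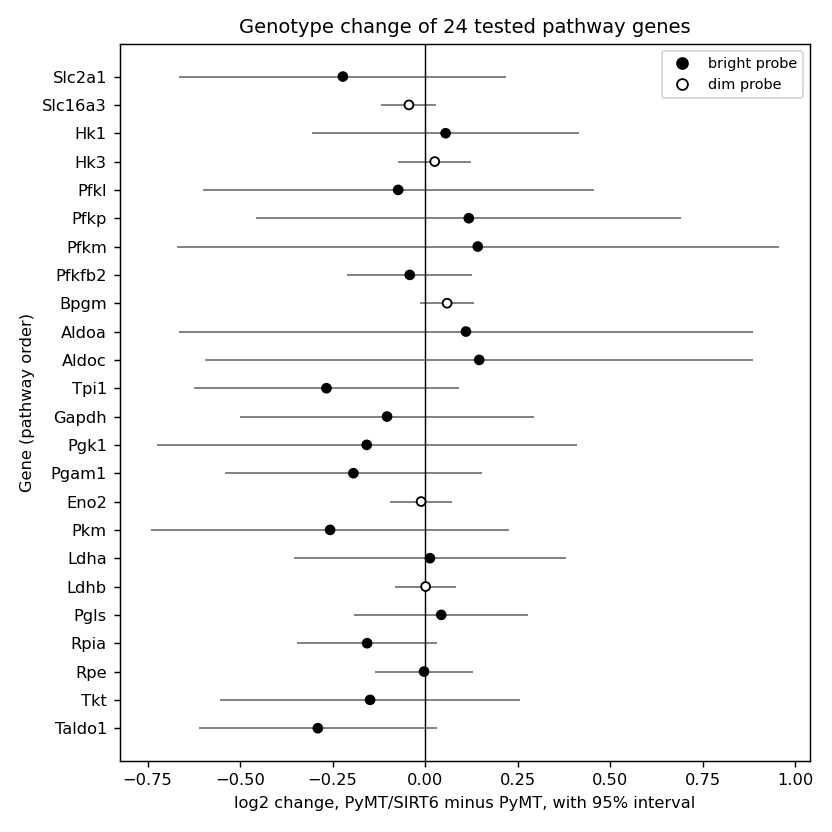
Change in log2 intensity, PyMT/SIRT6 minus PyMT, for the 24 tested genes in pathway order, with the 95% interval of limma's fit as a bar. Filled points are genes with a bright probe and open points those with a dim probe. Every interval includes 0, and the widest belong to Pfkm, Aldoa and Aldoc.

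Glucose enters these cells through facilitative transporters. Slc2a1 encodes GLUT1, the widespread basal glucose transporter. Its level had a lowest value of 10.13, a median of 10.60 and a highest value of 11.03 in PyMT tumours and was 10.31, 11.00, 9.92, 10.20 and 10.24 in PyMT/SIRT6 replicates 1 to 5. PyMT replicate 3 and PyMT/SIRT6 replicate 2 were the highest tumours and PyMT/SIRT6 replicate 3 the lowest. The change was -0.22 ± 0.20 (SE), with a 95% interval from -0.66 to 0.22 (limma adjusted p = 0.983). It was -0.39 without PyMT/SIRT6 replicate 2, -0.09 without the 4 tumours high in muscle markers and -0.18 with the muscle marker mean as a covariate. Slc2a3, the high-affinity transporter GLUT3 of neurons and leukocytes, lay between 7.18 and 7.43 in all tumours. The lactate exporters Slc16a1 (MCT1) and Slc16a3 (MCT4) were also at the dim end, at 7.16 to 7.38 and 7.22 to 7.44, and the other probes of Slc16a3 lay no higher. Bsg, the chaperone that brings both of them to the cell surface, lay between 7.30 and 7.48.

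Hexokinase and phosphofructokinase are the steps that commit glucose to the pathway. Hk1, the hexokinase found in most tissues, had a lowest level of 7.74, a median of 7.92 and a highest of 8.44 in PyMT tumours. In PyMT/SIRT6 replicates 1 to 5 Hk1 was 7.89, 8.69, 7.92, 7.95 and 7.98. PyMT/SIRT6 replicate 2 stood apart above the other tumours of its group, and the change of 0.06 ± 0.17 (SE) turned to -0.10 without it. The change was 0.36 without the 4 tumours high in muscle markers and 0.03 with the muscle marker mean as a covariate. Hk3, the hexokinase of myeloid cells, was dim at 7.24 to 7.47.

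The phosphofructokinase subunits come from separate genes, Pfkl named for liver, Pfkm for muscle and Pfkp for platelets, and all were bright. Pfkl had a lowest level of 11.67, a median of 12.24 and a highest of 12.43 in PyMT tumours and was 11.95, 13.20, 11.79, 11.74 and 11.78 in PyMT/SIRT6 replicates 1 to 5. Pfkp had a lowest level of 8.72, a median of 9.54 and a highest of 9.70 in PyMT tumours and was 9.40, 10.61, 9.05, 9.07 and 9.37 in the PyMT/SIRT6 replicates. In both genes PyMT/SIRT6 replicate 2 was the highest of all 11 tumours, above the next highest values of 12.43 for Pfkl and 9.70 for Pfkp. The genotype changes were -0.07 ± 0.24 and 0.12 ± 0.27 (SE). Without PyMT/SIRT6 replicate 2 they became -0.35 and -0.16. Without the 4 tumours high in muscle markers they were 0.37 ± 0.34 and 0.49 ± 0.39 (SE). With the muscle marker mean as a covariate they were -0.02 and 0.14, and neither gene passed in any of these fits. A second measurable probe of Pfkp, which averaged 7.95 in PyMT tumours and 8.03 with the extra allele, had its highest value, 8.55, in the same tumour.

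Pfkm had the highest within-genotype SD of the 28 pathway genes, 0.74. It had a lowest level of 9.58, a median of 9.87 and a highest of 11.70 in PyMT tumours and was 10.05, 10.28, 9.43, 10.31 and 11.22 in PyMT/SIRT6 replicates 1 to 5, a range of 4.85-fold over the 11 tumours. PyMT replicate 5 and PyMT/SIRT6 replicate 5 were the highest, and they were also the tumours with the most skeletal muscle marker signal. In the 4 tumours high in muscle markers Pfkm lay at 10.05 to 11.70 and in the other 7 at 9.43 to 10.28. Both other probes of Pfkm were also highest in those tumours, at 10.41 and 7.85 in PyMT replicate 5 and 9.62 and 8.35 in PyMT/SIRT6 replicate 5. The genotype change was 0.14 ± 0.38 (SE), and -0.19 after adding the muscle marker mean to the fit. It was 0.05 without the 4 tumours high in muscle markers. The part of muscle tissue in the level of Pfkm was not tested.

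Pfkfb2 and Pfkfb3 make fructose 2,6-bisphosphate, the activator of phosphofructokinase. Pfkfb2 was among the steadiest bright genes, at 7.82 to 8.18, with a change of -0.04 ± 0.08 (SE), and its mean of 8.02 was also among the lowest of them. Pfkfb3, the isoform induced by hypoxia and growth signals, lay at 7.08 to 7.24 on its single probe. Bpgm, which makes 2,3-bisphosphoglycerate, was dim at 7.31 to 7.51, with a change of 0.06 ± 0.03 (SE).

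Isoform balance was followed as the within-tumour difference of log2 levels of a pair of genes, where a change shows that the pair moved unequally. Of 11 pairs listed, 9 had a probe for both genes. Among them 0 differed between genotypes by exact two-sided permutation over all 462 splits of the tumours, with adjusted p from 0.565 to 0.957, and the smallest p such a test can give here is 0.002165. The lowest p belonged to Slc16a1 against Slc16a3 (exact permutation p = 0.0628, adjusted 0.565 over the 9 pairs), with both genes dim. For 4 pairs both genes were bright. The difference of Pfkl minus Pfkp averaged 2.79 ± 0.31 (SD, n = 6) for PyMT tumours, against 2.60 ± 0.12 (SD, n = 5) with the extra allele. The difference of Pfkl minus Pfkm was 2.05 ± 0.76 and 1.84 ± 0.90, and that of Pfkm minus Pfkp 0.73 ± 0.74 and 0.76 ± 0.83.

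The balance also shifted from tumour to tumour within each genotype. For Pfkl minus Pfkm, Pfkm minus Pfkp and Aldoa minus Aldoc the genotype means differed by -0.22, 0.02 and -0.04. The SDs of those pairs within each genotype were 0.65 to 0.90. For Pfkl minus Pfkp the means differed by -0.19, beside SDs of 0.31 (PyMT) and 0.12 (PyMT/SIRT6). Over the 11 tumours the ratio of Pfkm to Pfkp moved 5.34-fold, that of Pfkl to Pfkm 5.14-fold, that of Aldoa to Aldoc 4.86-fold and that of Pfkl to Pfkp 1.86-fold. Pfkm relative to Pfkp was highest in PyMT replicate 5, at 2.09, and PyMT/SIRT6 replicate 5, at 1.85, and lowest in PyMT/SIRT6 replicate 2, at -0.33. Pfkl and Pfkp thus kept a narrower ratio to each other than either did to Pfkm.

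**Figure D2:**
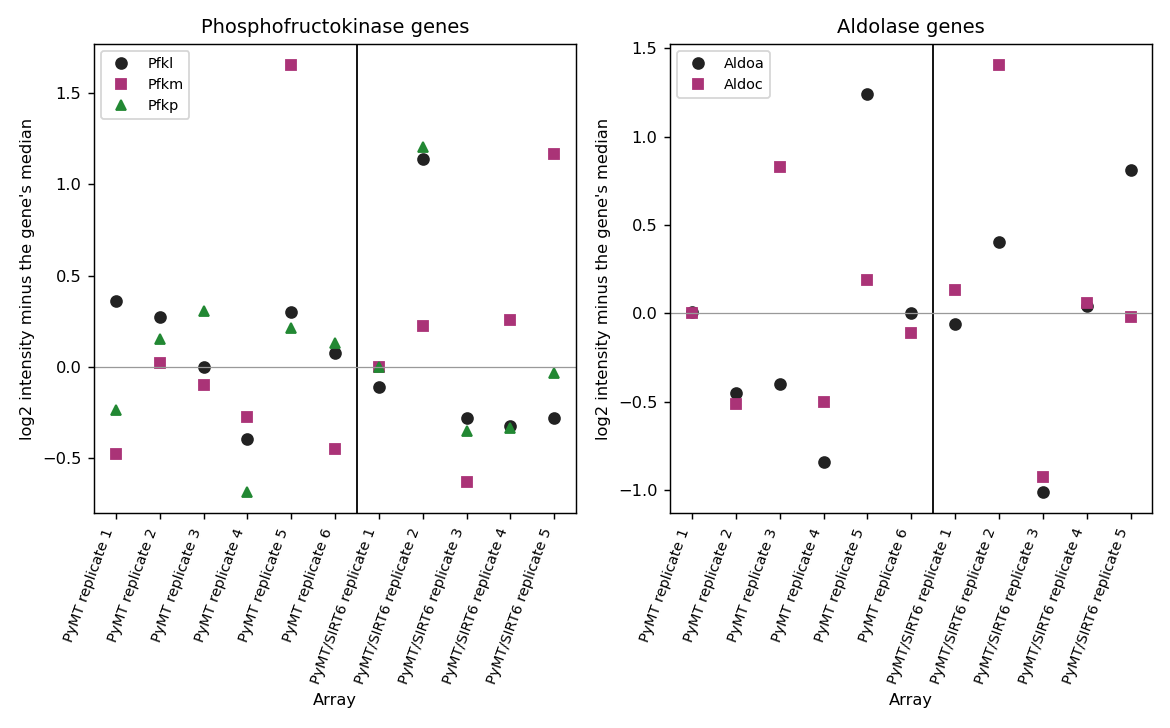
Levels of the phosphofructokinase genes (left) and aldolase genes (right) in each tumour, as log2 intensity minus the gene's median over the 11 tumours. The vertical line separates the 6 PyMT arrays from the 5 PyMT/SIRT6 arrays. Pfkl, Pfkp and Aldoc peak in PyMT/SIRT6 replicate 2, while Pfkm and Aldoa peak in PyMT replicate 5 and PyMT/SIRT6 replicate 5.

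Aldolase splits fructose 1,6-bisphosphate. Aldoa, the isoform of muscle and most growing cells, had a lowest level of 11.00, a median of 11.65 and a highest of 13.09 in PyMT tumours and was 11.78, 12.25, 10.83, 11.88 and 12.65 in PyMT/SIRT6 replicates 1 to 5. Its highest tumours were again PyMT replicate 5 and PyMT/SIRT6 replicate 5. Its change was 0.11 ± 0.36 (SE), -0.16 with the skeletal muscle covariate and 0.03 without the 4 tumours high in muscle markers.

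Aldoc, the isoform best known from brain, followed another order. It had a lowest level of 11.02, a median of 11.48 and a highest of 12.36 in PyMT tumours and was 11.67, 12.94, 10.61, 11.59 and 11.51 in PyMT/SIRT6 replicates 1 to 5. PyMT/SIRT6 replicate 2 was highest and PyMT replicate 3 next. Its change of 0.15 ± 0.34 (SE) turned to -0.17 without PyMT/SIRT6 replicate 2. A second probe of Aldoc stayed at 7.24 to 7.51.

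Some genes of the wider carbohydrate list, picked after their values were seen, were also high in the tumours with muscle markers, and others were not. Eno3, the muscle enolase, lay at 9.97 to 12.06 in the 4 tumours high in muscle markers and at 7.34 to 7.99 in the other 7. Pgam2, the muscle phosphoglycerate mutase, lay at 9.23 to 11.23 against 7.25 to 7.78, and Pygm, the muscle glycogen phosphorylase, at 7.53 to 8.73 against 7.15 to 7.32. Fbp2, the muscle fructose bisphosphatase, overlapped between the 2 sets, at 7.50 to 8.28 against 7.32 to 8.19, as did the dim Gys1, the muscle glycogen synthase, at 7.43 to 7.66 against 7.25 to 7.46. The genotype changes of Eno3, Pgam2 and Pygm were 1.17 ± 0.96, 0.94 ± 0.80 and 0.26 ± 0.30 (SE), within the spread between tumours.

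The lower part of glycolysis, from triose phosphate to pyruvate, was bright apart from Eno2. Tpi1, which interconverts the triose phosphates, had a lowest level of 12.45, a median of 12.85 and a highest of 13.20 in PyMT tumours and was 12.56, 12.98, 12.52, 12.12 and 12.69 in PyMT/SIRT6 replicates 1 to 5. The groups overlapped over most of their range. Its change was -0.27 ± 0.17 (SE), and the other probes of Tpi1 had changes of -0.21 and -0.08. Gapdh, the glyceraldehyde phosphate dehydrogenase often used as a reference gene, spanned 11.83 to 12.83 with a change of -0.10 ± 0.18 (SE). Without the 4 tumours high in muscle markers the change was -0.07 for Tpi1 and 0.14 for Gapdh. With the muscle marker mean as a covariate it was -0.24 for Tpi1 and -0.11 for Gapdh. Gapdh was highest in PyMT/SIRT6 replicate 2 and moved 2.00-fold over the tumours.

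Pkm, the pyruvate kinase gene of tumours and muscle, had a lowest level of 12.06, a median of 12.45 and a highest of 12.75 in PyMT tumours. In PyMT/SIRT6 replicates 1 to 5 Pkm was 12.01, 13.12, 11.74, 11.89 and 12.12. Apart from replicate 2, the PyMT/SIRT6 tumours lay at or below 12.12. The change was -0.26 ± 0.22 (SE), and without PyMT/SIRT6 replicate 2 it was -0.49. Without the 4 tumours high in muscle markers it was 0.05, and with the muscle marker mean as a covariate -0.25. It passed in none of these fits. No splice form of Pkm was assigned to a probe here. Eno2, the neuronal enolase, was dim at 7.25 to 7.47. A probe annotated to Eno1b, for which RefSeq lists Eno1 as a synonym, lay at 7.39 to 7.66 and was not taken as Eno1.

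Pgk1 and Pgam1, which encode phosphoglycerate kinase and the non-muscle phosphoglycerate mutase, had their highest levels in the same pair of PyMT tumours. Pgk1 had a lowest level of 9.66, a median of 10.12 and a highest of 11.07 in PyMT tumours and was 9.80, 10.44, 10.08, 10.14 and 10.03 in PyMT/SIRT6 replicates 1 to 5. Pgam1 had a lowest level of 8.20, a median of 8.49 and a highest of 9.12 in PyMT tumours and was 8.42, 8.56, 8.31, 8.39 and 8.18 in the PyMT/SIRT6 replicates. In both genes PyMT replicate 3 was highest and PyMT replicate 1 next. The genotype changes were -0.16 ± 0.26 and -0.19 ± 0.16 (SE), and 0.00 and -0.08 without PyMT replicate 3. Pgk1 spread by 0.64 (SD, n = 6) among PyMT tumours and by 0.23 (SD, n = 5) among PyMT/SIRT6 tumours, and the difference in spread was not tested. Other probes of both genes were dim. In limma fitted over all probes, those of Pgk1 had changes of -0.10 and 0.02 (unadjusted p = 0.00213 and 0.542). That of Pgam1 had a change of -0.06 (limma unadjusted p = 0.017). The genotypes overlapped on each of these probes, and at such levels no order is read from them.

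Lactate dehydrogenase closes fermentative glycolysis. Ldha, the subunit that favours lactate formation and the brightest gene of the set by its probe, had a lowest level of 12.99, a median of 13.42 and a highest of 13.83 in PyMT tumours and was 13.47, 13.99, 13.08, 13.26 and 13.38 in PyMT/SIRT6 replicates 1 to 5. The change of Ldha was 0.01 ± 0.17 (SE), with a 95% interval from -0.35 to 0.38. Ldhb, the subunit that favours pyruvate, stayed at 7.25 to 7.42 on its single probe, so a ratio of the subunits reflects Ldha alone.

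In the oxidative arm of the pentose phosphate pathway Pgls, the phosphogluconolactonase, lay at 10.70 to 11.15 with a change of 0.04 ± 0.11 (SE), while Pgd, the phosphogluconate dehydrogenase, lay below the filter at 7.13 to 7.26. A probe of G6pd2, a copy of the glucose 6-phosphate dehydrogenase gene, lay at 7.20 to 7.38. In the non-oxidative arm all 4 genes had changes below 0. Taldo1, the transaldolase, had a lowest level of 12.44, a median of 12.80 and a highest of 13.22 in PyMT tumours and was 12.42, 12.83, 12.66, 12.26 and 12.44 in PyMT/SIRT6 replicates 1 to 5. Its change of -0.29 ± 0.15 (SE; unadjusted p = 0.0737, limma adjusted p = 0.983) had the lowest p of the set. The change was -0.07 without the 4 tumours high in muscle markers and -0.24 with the muscle marker mean as a covariate.

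Rpia, the ribose 5-phosphate isomerase, had a lowest level of 8.44, a median of 8.65 and a highest of 8.79 in PyMT tumours and was 8.27, 8.50, 8.54, 8.49 and 8.55 in PyMT/SIRT6 replicates 1 to 5. PyMT/SIRT6 replicate 1 was the lowest tumour, and the change was -0.16 ± 0.09 (SE). Tkt, the transketolase, had a lowest level of 10.81, a median of 11.32 and a highest of 12.01 in PyMT tumours and was 11.31, 11.28, 11.11, 10.91 and 11.37 in the PyMT/SIRT6 replicates, a change of -0.15 ± 0.19 (SE). Rpe, the ribulose phosphate epimerase, was the steadiest bright gene by range, at 7.72 to 7.99, with a change of -0.00 ± 0.06 (SE). It was also the dimmest of the bright genes, with a mean of 7.83, and the part of the probe in its small range was not tested.

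Variation between tumours in most of the bright genes was above the median of bright features. The SD within genotype had a median of 0.34 over the 19 bright genes, beside 0.19 over all 8583 bright features, and 15 of the 19 lay above that median and 7 above the 90th percentile of bright features. Pfkm (SD 0.74), Aldoa (0.70), Aldoc (0.67), Pfkp (0.51), Pgk1 (0.50), Pfkl (0.47) and Pkm (0.42) were those 7. These are descriptions, since the tumours share their processing and the genes are not independent. The genes and the features set beside them were not matched for level. A dimmer probe of Pfkp, at a mean of 7.98, had an SD of 0.26, while a dimmer probe of Pfkm, at 8.75, had 0.74. Whether the spread differs at equal levels was not tested.

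The tumours fell out differently for different genes. PyMT/SIRT6 replicate 2 was the highest tumour for 7 of the 19 bright genes, namely Hk1, Pfkl, Pfkp, Aldoc, Gapdh, Pkm and Ldha, and lay above the gene's mean in 16. PyMT replicate 3 was the highest for 6 (Slc2a1, Tpi1, Pgk1, Pgam1, Pgls and Rpe), and PyMT replicate 5 for 3 (Pfkm, Aldoa and Tkt). PyMT/SIRT6 replicate 3 was the lowest tumour for 6 genes and lay above the gene's mean in 1. PyMT/SIRT6 replicates 2 and 3 thus held the highest and the lowest mean over the 19 bright genes, 11.07 and 10.32, with PyMT tumours at 10.40 to 10.91.

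**Figure D3:**
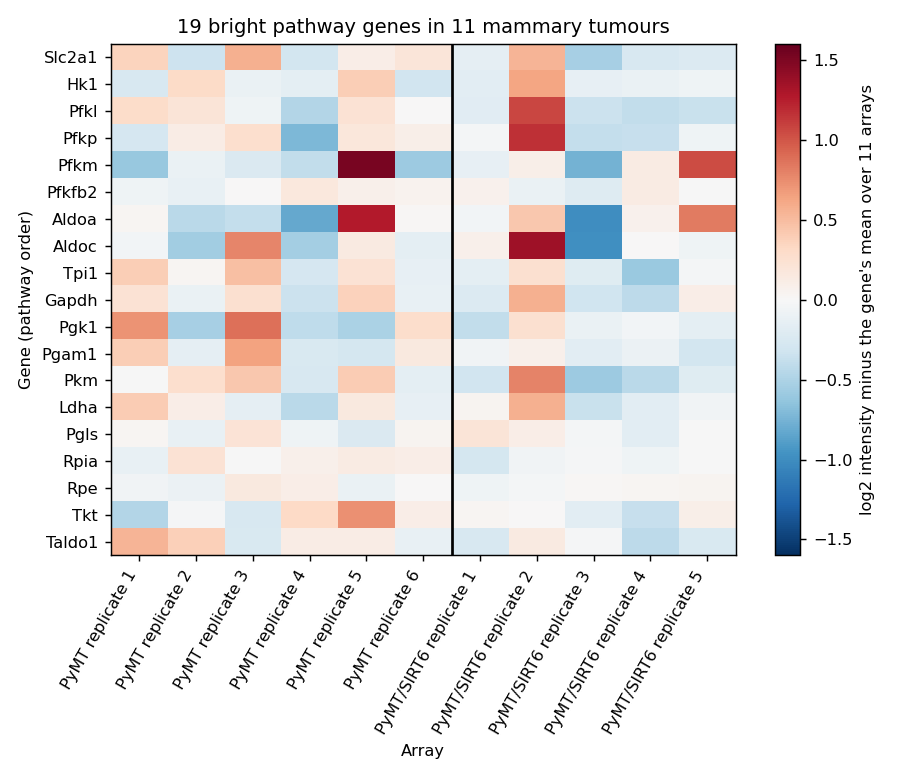
Log2 intensity of the 19 bright genes in pathway order (rows) in each tumour (columns), minus the gene's mean over 11 arrays, with red above and blue below that mean. The black line separates PyMT from PyMT/SIRT6 arrays. PyMT/SIRT6 replicate 2 is the highest tumour at Hk1, Pfkl, Pfkp, Aldoc, Gapdh, Pkm and Ldha and lies below the mean at Pfkfb2, PyMT replicates 1 and 3 are high at Pgk1 and Pgam1, and PyMT replicate 5 is high at Pfkm and Aldoa.

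Levels of the pathway genes were next set against HIF targets outside glycolysis, such as Vegfa, Car9, P4ha1 and Egln3. The list held 21 genes, of which 17 were tested, and its score was the mean over those genes after each was centred. Not all of the listed genes moved together. Against the score of the rest, 13 of the 17 had a slope above 0 in limma, 11 of them at an unadjusted p under 0.05. The score was 0.42 in PyMT replicate 3 and 0.20 in PyMT replicate 1, and between -0.19 and 0.12 in the other 9 tumours. In limma, with genotype as a covariate and adjustment over all 14726 features, 2 of the 24 genes rose with the score and 0 fell, where 0.244% of all features rose and 0.122% fell. The called genes were Pgk1 and Pgam1. At an unadjusted p under 0.05, 5 genes rose and 1, Tkt, fell, and 1 of the 5, Eno2, is dim, where 7.52% of all features rose and 7.39% fell.

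Pgk1 rose by 2.59 ± 0.37 (SE) on the log2 scale per unit of the score (limma adjusted p = 0.014). Across the 11 tumours Pearson's r was 0.92 (permutation p = 0.00012) and Spearman's rho 0.84 (permutation p = 0.00229). Without PyMT replicates 1 and 3, the tumours farthest from the median score, r was 0.78 over 9 tumours. Pgam1 rose by 1.56 ± 0.23 (SE) per unit (limma adjusted p = 0.0156), with r = 0.97 (permutation p = 5e-05) and rho = 0.85 (permutation p = 0.00158), and r was 0.87 without those tumours. Within the 6 PyMT tumours alone r was 0.97 for Pgk1 and 0.98 for Pgam1, and within the 6 tumours deposited first 0.91 and 0.99. No correlation was computed over fewer than 6 tumours, so none is given for the 5 PyMT/SIRT6 tumours or the 5 deposited last.

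These calls needed PyMT replicate 3, whose score was the highest. Without PyMT replicate 3 the slopes were 2.97 for Pgk1 and 1.61 for Pgam1 with limma adjusted p of 0.187 and 0.297. Without PyMT replicate 4 they were 2.55 and 1.51 (limma adjusted p = 0.0533 and 0.0644), and without PyMT replicate 2 the adjusted p of Pgk1 was 0.0521. Without both PyMT replicates 1 and 3, an alternative chosen after seeing the data, the slopes were 2.38 and 1.35 (limma adjusted p = 0.926 and 1.00). Without the 4 tumours high in muscle markers they were 2.51 and 1.47 (limma adjusted p = 0.125 and 0.205). The slopes of both genes stayed above 0 in each of the 17 fits run.

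Slc2a1 had a slope of 1.72 ± 0.42 (SE), with r = 0.84 (permutation p = 0.00072) and rho = 0.84 (permutation p = 0.00234), and r was 0.78 without PyMT replicates 1 and 3. Adjusted over all features it did not pass (limma adjusted p = 0.0971), and it passed without PyMT/SIRT6 replicate 2 (limma adjusted p = 0.029, slope 1.44). Aldoc had a slope of 2.54 ± 0.80 (SE; limma adjusted p = 0.186) and r = 0.59 (permutation p = 0.0618). Ldha, also a known HIF target, had a slope of 0.44 ± 0.52 (SE; limma adjusted p = 0.712) and r = 0.23 (permutation p = 0.503). In all, 48 such relations were computed, 24 with this list and 24 with the proliferation list.

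Other markers moved with the same score. Of 11 tested luminal genes 9 fell with it at an unadjusted p under 0.05, and the luminal mean was lowest in PyMT replicate 3, at 9.85. Of 8 tested adipocyte genes 6 fell with it at that threshold, and their mean was 7.71 and 7.84 in PyMT replicates 1 and 3, with 7.68 to 9.32 in the others. At the same threshold 4 of 6 tested T and NK cell genes fell, with 1 of the 6 bright. Of 10 tested basal genes 3 fell and 1 rose, and of 10 tested fibroblast genes 2 fell. Over all features 7.39% fell and 7.52% rose. The mean of 3 erythroid genes was highest in PyMT replicates 1 and 3, at 12.47 and 11.81, against 9.15 to 11.03 in the other tumours. Their part in the relation of Pgk1 and Pgam1 to the score was not tested.

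**Figure D4:**
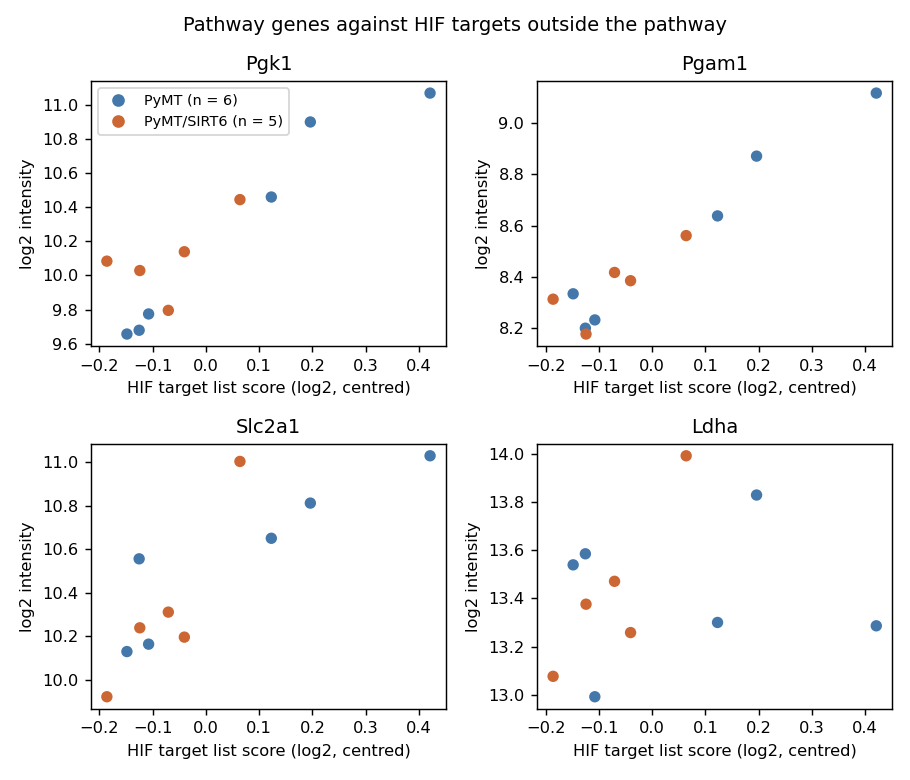
Log2 intensity of Pgk1, Pgam1, Slc2a1 and Ldha (vertical axes) against the score of 17 HIF targets outside glycolysis (horizontal axes, mean centred log2 level) in 6 PyMT and 5 PyMT/SIRT6 tumours, 1 point per tumour. Pgk1, Pgam1 and Slc2a1 climb with the score, with r of 0.92, 0.97 and 0.84, and Ldha is scattered, with r of 0.23.

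HIF-1 binds the core letters ACGTG or GCGTG, so the 250 bases before the start site of these genes were searched for both, on both strands. The upstream sequences of the pair called above and of Slc2a1 are shown from RefSeq assembly GRCm38.p6, 5′ to 3′ on the gene's strand, which is the plus strand for each, with matches in capitals. Pgk1 lies at chrX:106186850-106187099, Pgam1 at chr19:41911621-41911870 and Slc2a1 at chr4:119108495-119108744.
Pgk1: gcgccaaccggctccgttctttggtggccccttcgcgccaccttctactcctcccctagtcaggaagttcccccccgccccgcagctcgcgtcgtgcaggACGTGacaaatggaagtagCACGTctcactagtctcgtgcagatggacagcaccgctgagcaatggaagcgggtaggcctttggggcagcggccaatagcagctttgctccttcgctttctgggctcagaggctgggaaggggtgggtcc
Pgam1: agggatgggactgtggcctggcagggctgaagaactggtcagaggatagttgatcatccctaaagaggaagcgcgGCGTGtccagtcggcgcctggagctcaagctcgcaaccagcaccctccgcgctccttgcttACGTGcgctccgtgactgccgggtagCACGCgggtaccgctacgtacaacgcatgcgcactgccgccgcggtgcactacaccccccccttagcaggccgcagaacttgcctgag
Slc2a1: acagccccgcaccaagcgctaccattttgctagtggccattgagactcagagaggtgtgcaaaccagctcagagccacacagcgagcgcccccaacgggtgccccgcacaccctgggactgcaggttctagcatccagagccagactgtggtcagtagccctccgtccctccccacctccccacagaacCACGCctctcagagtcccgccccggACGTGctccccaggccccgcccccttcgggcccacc

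Pgk1 held 2 matches, whose first bases lay 150 and 131 bases before the start. Pgam1 held 3, at 175, 114 and 88 bases, and Slc2a1 held 2, at 61 and 36 bases. The motif is short and common: 38.6% of all 32851 promoters and 53.6% of the 11690 promoters of tested genes held at least 1 match. Of the 46 promoters of 31 pathway genes, tested or not, 36 did (78.3%). Ldha, whose level did not pass with the score, held 5 matches at one of its starts, where the palindrome CACGTG counts on both strands. Tpi1 held none in this window. A match is a run of letters and not a measured site of binding.

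Levels were also set against a proliferation list. With 13 of 19 genes tested, 0 of the 24 pathway genes followed its score at an adjusted p of 0.05, where 0% of all features did. At an unadjusted p under 0.05 the count was 7 of the 24, with 3 slopes above 0 and 4 below, against 14.3% of all features. Among the 7 were Pgk1, with a slope of 1.13 ± 0.51 (SE), and Pgam1, with 0.80 ± 0.29 (SE), and the proliferation score was highest in PyMT replicates 1 and 3, at 0.45 and 0.31. The parts of the 2 scores in the levels of Pgk1 and Pgam1 were not tested against each other. Pfkm and Aldoa had slopes of -2.10 and -1.68, and the dim genes Slc16a3 and Ldhb were also counted. At the same threshold 17 of 19 tested skeletal muscle genes and 6 of 8 tested adipocyte genes fell with this score, and 0 rose. The score was lowest in PyMT replicate 5 and PyMT/SIRT6 replicate 5, at -0.38 and -0.24, and was 0.12 and -0.12 in PyMT/SIRT6 replicates 1 and 4. The part of muscle tissue in the slopes of Pfkm and Aldoa was not tested. The slope of Tkt on it was -1.14 ± 0.28 (SE; limma adjusted p = 0.18), and that of Hk1 was -0.54 ± 0.35 (SE; limma adjusted p = 0.509). With deposit order as a further block Hk1 passed, at -1.72 (limma adjusted p = 0.0319), and in the other alternatives its slope lay between -0.71 and -0.26.

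Other genes of carbohydrate use, from a wider list, gave no call between genotypes either. Of 67 listed, 43 were tested, with 16 higher, 27 lower and 0 past the threshold in limma, and the median change was -0.04. Those with the lowest p were Emb, an accessory protein of lactate transporters (-0.53 ± 0.18, unadjusted p = 0.00964, limma adjusted p = 0.983), and Pfkfb4, another fructose 2,6-bisphosphate enzyme (0.18 ± 0.08, unadjusted p = 0.0402). Prps2, a ribose phosphate pyrophosphokinase, came next (-0.11 ± 0.06). Of 21 regulators 17 were tested and 0 passed, Sirt6 coming nearest. The next were the AMP-activated kinase subunit Prkaa1 (-0.07 ± 0.03), the HIF prolyl hydroxylase Egln3 (-0.51 ± 0.25) and the HIF partner Arnt (-0.27 ± 0.14). The change was -0.03 ± 0.07 for Hif1a, -0.09 ± 0.06 for Myc and, for the glucose-responsive gene Txnip, -0.20 ± 0.26 (SE in each).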

How the data were processed

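Expression was measured in 11 tumours with 1 Illumina array each. The deposited values are linear intensity per probe; the background correction and normalization the authors used are not stated in the labels or headers. Sorted values of any pair of arrays differed by at most 1.08%, so the arrays already shared nearly 1 distribution, and no further scaling was applied. Log2 intensity was computed from these deposited values. Of 45281 probes, 34885 had a single gene symbol, 18 several and 10378 none in the platform annotation. The probe with the highest mean stood for each gene, and probes without a symbol for themselves, giving 29453 features, of which the upper 50% by mean (14726) were tested with limma 3.58.1 in R 4.3.3 (lmFit and eBayes with trend, Benjamini-Hochberg adjustment over all tested features, threshold 0.05). The pathway genes and all lists were chosen with earlier results of these data known. Most genes given in detail were among the 8 with the smallest p or the 8 with the largest spread. Hk1, Ldha and Tkt were added, and the dim Bpgm and Slc16a3, among the smallest p, were given in less detail. List scores were means of centred log2 levels, used as a covariate beside genotype. Permutation p-values of correlations are two-sided, from 100000 resamples. The main genotype fit and the HIF slope fit were tested on simulated data, and the other limma fits were not. There 61.2% of added log2 changes of 0.5 and 94% of changes of 1 passed, as did 52.2% of added slopes of 1. The changed features were drawn from all tested features, whose SD within genotype had a median of 0.13, beside 0.34 for the bright pathway genes. In the simulated genotype fit 174 features passed, beside 2 in the data, which eases the adjusted threshold. These shares therefore do not apply to the bright pathway genes. Noise in the simulated data was independent between genes. The number of arrays limits the precision.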

Additional observations from a re-analysis of the deposited data

Results flagged for a closer look

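Among 56 sets of values, 28 genes in each of 2 genotypes, 6 had a tumour farther from the rest of its group than Dixon's 95% limit allows, and chance flags about 1 in 20. The sets are not independent, since every gene was read in the same tumours, so the count is not a test. In PyMT/SIRT6 tumours replicate 2 stood above the others for Hk1, at 8.69 against a next value of 7.98, for Pfkl, at 13.20 against 11.95, for Pfkp, at 10.61 against 9.40, and for Pkm, at 13.12 against 12.12. Rpia was lowest in PyMT/SIRT6 replicate 1, at 8.27 with the next value at 8.49. Pfkm was highest in PyMT replicate 5, at 11.70 with the next value at 10.07, and that tumour had the highest skeletal muscle marker mean, 11.53.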

How the results depend on the processing

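The count of pathway genes past the threshold between genotypes was 0 in the main analysis and in each of the 26 alternatives, and the count of isoform ratios was 0 in each of 15. The count of genes that followed the HIF targets was 2, and it was 0 without the arrays high in skeletal muscle, 0 without both PyMT arrays with the highest score (chosen after seeing the data), and 0 to 3 when 1 array was left out: 1 when PyMT replicate 2 was absent, 0 when PyMT replicate 3 or PyMT replicate 4 was, and 3 when PyMT/SIRT6 replicate 2 was. The cause was not tested. For the proliferation list the count was 0, and 1 with deposit order as a further block. Over all genes and alternatives, the sign differed from the main analysis in 45 of 617 genotype changes and 21 of 135 ratios. It also differed in 23 of 408 HIF slopes and 25 of 384 proliferation slopes. Where a sign differed, the value passed neither in the main analysis nor in that alternative. No paired analysis was possible because replicate numbers follow deposit order and pair no tumours. Probes near background limit what can be read of the dim genes.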
